A study of Mus musculus with 8 samples.

Results

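The aryl hydrocarbon receptor (Ahr), the oxidative stress factor Nrf2 (gene Nfe2l2) and the pregnane X receptor (gene Nr1i2) are sensors of foreign chemicals in the gut epithelium. The 10 genes described here are these 3 sensors with a partner, an inhibitor and targets: Ahr, Arnt, Tiparp, Nr1i2, Nfe2l2, Keap1, Gclc, Gclm, Txnrd1 and Nqo1. They were picked by name, and every region of the deposited table whose nearest gene carried such a name was taken. Each of the 10 genes had 1 region, giving 10 of the 11251 regions. The choice of the genes used no value of the table, although earlier results of these data were known when it was made.

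The table holds H3K9ac, the acetylated form of lysine 9 on histone H3 that is found at promoters in use, measured by chromatin immunoprecipitation and sequencing. The chromatin came from wild-type C57Bl/6 mice, from epithelial cells of their terminal ileum. The 3 butyrate libraries (S4 to S6) came from mice given butyrate at 150 mM for 7 days, and the 3 vehicle libraries (S1 to S3) from mice given vehicle. Butyrate is a bacterial short-chain fatty acid that inhibits histone deacetylases. The labels give neither the age of the mice nor the route, nor whether libraries are separate mice, so p-values measure the spread between libraries, which may be technical. In such bulk material fewer cells of a type and less acetylation per cell cannot be told apart. The study's 2 input libraries are not analysed here.

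Values are RPKM, which divides the reads of a region by its length in kilobases and by library size. Behind them stand totals of 1255251 to 1828591 region reads, with library medians of 82 to 120 for a region. Relative to library size, the reads in regions were nearly equal between libraries (factors of 0.994 to 1.007). How library size was set is not given in the sources used here. Each difference may therefore be only relative to the other regions, and a change shared by all regions might not be seen. Of 13 intestinal epithelial markers 12 had a region within 5 kb of a start site that passed the filter on low values, and of 6 markers of ileal enterocytes 5 did. The leukocyte, stroma and muscle, endothelium, and neuron and glia lists, of 10, 8, 5 and 4 genes, had 0 such regions. The summed RPKM of the epithelial markers ranged from 59.0 to 62.2 in vehicle and from 56.1 to 62.2 in butyrate. Within this sum 6 markers were higher with butyrate and 6 lower. The libraries of the groups did not overlap at 3 of the 12, with Epcam and Krt20 higher and Cdh1 lower, against 12.9% of all genes taken at such a region.

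As background, ligand-bound Ahr moves to the nucleus, pairs with Arnt and binds the xenobiotic response element. Among its targets are cytochrome P450 genes and Tiparp, an ADP-ribosyltransferase that dampens Ahr in return. Nrf2 is held in the cytoplasm and sent to degradation by Keap1, and once freed it pairs with small Maf proteins at antioxidant response elements to switch on glutathione and thioredoxin genes. The gut epithelium meets dietary and microbial ligands of these sensors all the time.

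Promoter sequences were searched for the letters TNGCGTG (the Ahr-Arnt core) and TGACNNNGC (the Nrf2-Maf core) on both strands. The sequences come from RefSeq (build GRCm38.p6) and run from 250 bases before to 50 bases after a start site. Entries were matched for 8 of the 10 genes, with 10 start sites, and Ahr and Gclc had no entry. The Nrf2-Maf letters were found at 1 start site each of Arnt, Gclm, Nfe2l2 and Txnrd1, and in 12.4% of all 32851 promoters. The Ahr-Arnt letters were found in 0 of the 10 entries, and in 5.07% of all promoters. These 4 promoters are shown because they hold the Nrf2-Maf letters, with the matches in capitals, 5′ to 3′ on the strand of the gene. A match is a description of letters and not a bound site.
Arnt, chr3:95434140-95434439, plus strand: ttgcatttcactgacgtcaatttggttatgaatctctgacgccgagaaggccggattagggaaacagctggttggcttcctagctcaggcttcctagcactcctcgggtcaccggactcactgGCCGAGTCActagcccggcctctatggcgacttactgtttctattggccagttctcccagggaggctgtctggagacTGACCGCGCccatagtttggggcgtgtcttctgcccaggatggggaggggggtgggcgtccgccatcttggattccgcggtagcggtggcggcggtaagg
Nfe2l2, chr2:75704614-75704913, minus strand: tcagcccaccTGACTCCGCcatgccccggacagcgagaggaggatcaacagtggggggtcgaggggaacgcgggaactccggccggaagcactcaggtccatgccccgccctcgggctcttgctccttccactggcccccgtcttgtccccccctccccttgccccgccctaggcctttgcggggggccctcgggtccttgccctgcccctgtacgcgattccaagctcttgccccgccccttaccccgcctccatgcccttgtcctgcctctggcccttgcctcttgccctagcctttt
Txnrd1, chr10:82858956-82859255, plus strand: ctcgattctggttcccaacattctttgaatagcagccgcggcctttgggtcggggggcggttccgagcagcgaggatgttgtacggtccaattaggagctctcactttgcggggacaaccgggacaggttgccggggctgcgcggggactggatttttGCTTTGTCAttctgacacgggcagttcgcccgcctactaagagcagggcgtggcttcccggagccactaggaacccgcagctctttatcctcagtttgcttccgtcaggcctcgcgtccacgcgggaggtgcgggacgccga
Gclm, chr3:122245307-122245606, plus strand: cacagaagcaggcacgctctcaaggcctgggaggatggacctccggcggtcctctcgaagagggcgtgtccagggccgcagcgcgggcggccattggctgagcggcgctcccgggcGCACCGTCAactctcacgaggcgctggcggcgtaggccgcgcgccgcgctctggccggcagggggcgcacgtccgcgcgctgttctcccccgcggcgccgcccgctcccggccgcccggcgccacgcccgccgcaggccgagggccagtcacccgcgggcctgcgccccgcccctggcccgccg

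The matches began 127 and 50 bases before the start site in Arnt, 240 in Nfe2l2, 92 in Txnrd1 and 134 in Gclm. In Arnt, Nfe2l2 and Txnrd1 the whole promoter lay inside the H3K9ac region of the gene. In Gclm the region held only the last 33 of the 300 bases, and the match lay outside it. The letters were read as TGACNNNGC on the gene's own strand in Nfe2l2 and at the match nearer to the start in Arnt, and on the opposite strand at the others.

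The regions of the 10 genes were of very unequal size (coordinates are mm10). The Nfe2l2 region was the longest, with 12741 bp on chromosome 2 (75695485 to 75708225), and only 2 of the 11251 regions of the table were longer. It ran from -3562 bp to 9178 bp relative to the annotated start, with its centre in an intron of a non-coding transcript, and also held the start of the non-coding gene E030042O20Rik. Txnrd1 had 5606 bp on chromosome 10 (82857277 to 82862882) and held 6 of the gene's 8 GENCODE start sites and that of the non-coding Gm38560. Regions of 5 kb or more made up 2.43% of the table (273), and Nfe2l2 and Txnrd1 were among them. Nr1i2 followed with 4924 bp on chromosome 16 (38291044 to 38295967), and 289 regions of the table were longer. The median region of the table had 1417 bp.

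Intermediate regions covered the start sites of Gclc, Keap1, Arnt and Ahr, and Gclm from 16 bp after the annotated start. The Gclc region had 2734 bp (chromosome 9, 77754114 to 77756847) and the Gclm region 2360 bp (chromosome 3, 122245574 to 122247933), both annotated at their centre to the first intron. Keap1 had 2033 bp (chromosome 9, 21237476 to 21239508), annotated at its centre to the 5′ UTR in exon 1. Arnt had 1818 bp (chromosome 3, 95433748 to 95435565) and Ahr 1726 bp (chromosome 12, 35533682 to 35535407), both centred on the first intron. The Ahr region also held a start site of the non-coding gene Gm48236. Counts cannot be split between a gene and a non-coding neighbour that shares its region.

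Nqo1 and Tiparp had the shortest regions the table holds, of 500 bp, a length shared by 15.3% of regions (1725), and neither covered a start site of its gene. The Nqo1 region (chromosome 8, 107403994 to 107404493) ended 788 bp before the start. The deposited annotation puts it in an intron of a microRNA transcript that RefSeq lists at Mir5098 on chromosome 5, and no GENCODE start site lay in it. The Tiparp region (chromosome 3, 65494623 to 65495122) was annotated as intergenic, held a GENCODE start of the gene Gm34780 and lay 33288 bp from the nearest Tiparp start. The start of Tiparp itself lay in another region, which the table names after the neighbouring non-coding gene 4931440P22Rik (chromosome 3, 65528039 to 65530019, 1981 bp). That region is not among the 10, and its values are given below beside those of Tiparp. Neither 500 bp region held either set of letters, which occurred in 7.36% (Ahr-Arnt) and 15.8% (Nrf2-Maf) of all regions of 500 bp.

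**Figure D1:**
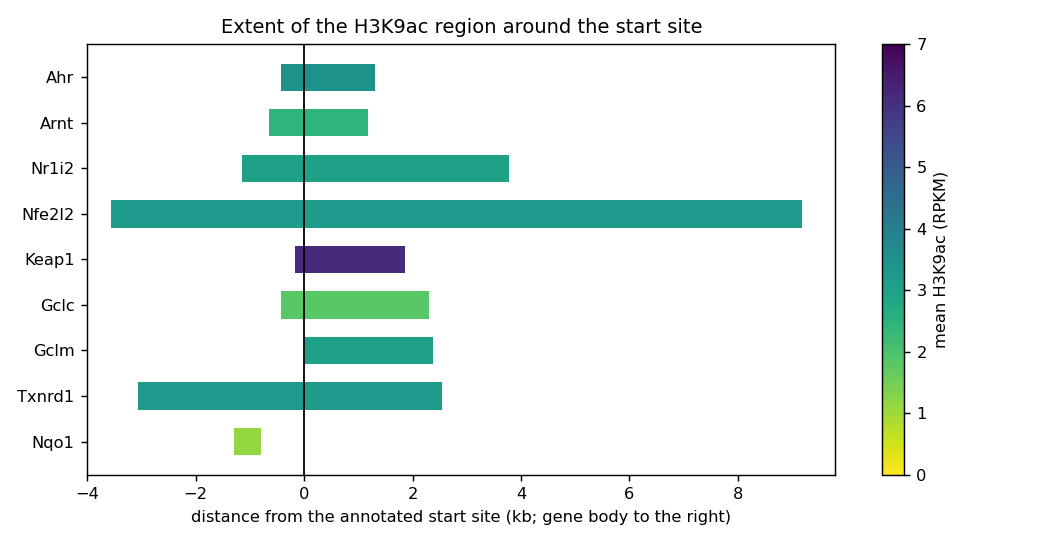
Extent of the H3K9ac region of 9 genes along the distance from the annotated start site in kb (gene body to the right, black line at the start), coloured by the mean RPKM over 6 libraries. Nfe2l2 spans 12741 bp and Nqo1 ends 788 bp before its start; Tiparp, whose region lies 33288 bp away, is not drawn.

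**Figure D2:**
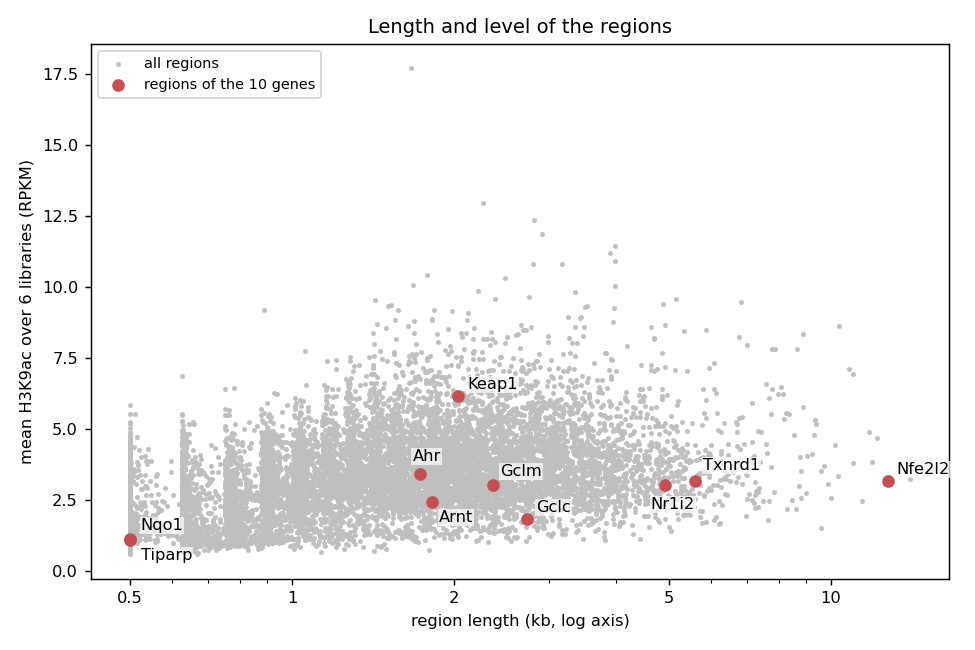
Mean H3K9ac over 6 libraries (RPKM) against region length (kb, log axis) for all 11251 regions in grey and the 10 regions in red. Nfe2l2 sits at the far right at 3.17 RPKM, Keap1 is the highest of the red points at 6.17 RPKM, and Nqo1 and Tiparp lie in the lower left corner.

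Per kilobase, Keap1 had the highest level, with a mean of 6.17 RPKM over the 6 libraries, above 96.1% of all regions. Its lowest library (5.76) was above the highest of Ahr (3.77), the next in order at 3.44. Txnrd1 (3.18), Nfe2l2 (3.17), Nr1i2 (3.03), Gclm (3.03) and Arnt (2.44) followed, and in each step of this order from Ahr to Arnt the ranges of the libraries overlapped. Gclc, at 1.82 RPKM, lay below every library of Arnt. Nqo1 (1.15) and Tiparp (1.08) were the weakest, with ranges that overlapped each other. The median region had 3.09 RPKM, so that Nfe2l2 combined an ordinary level per kilobase with a very long region. Its 862 mean reads were the most of the 10 genes, against 11.5 for Tiparp and 12.0 for Nqo1.

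Base composition varied as well. Keap1 had a GC content of 61.7% and Ahr the highest ratio of observed to expected CpG, 0.777. Nr1i2 (0.217) and Nqo1 (0.158) were poor in CpG, where the median region had 0.588. Nr1i2 thus had as much H3K9ac per kilobase as Gclm, whose ratio was 0.682.

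The comparison of butyrate with vehicle asks whether the treatment changed acetylation at these genes. With butyrate 0 of the 10 regions passed limma on log2(RPKM + 1) at a Benjamini-Hochberg adjusted p of 0.05, where 0.00% of the 10529 tested regions passed. At an unadjusted p under 0.05 it was 0 of 10, where 7.27% of tested regions (765) passed. Voom, limma's model for reads, on all regions called 0.142% of regions and 0 of the 10, and 1 of the 10, Nfe2l2, had an unadjusted voom p under 0.05, where 9.49% of regions did. Voom on regions of at least 25 mean reads called 0.0995% of regions and 0 of the 8 members it tested. At an FDR of 0.1 the authors' deposited table called 0.249% of regions, of which none was a member. Log2 fold changes were below 0 at 7 of the 10 regions and above 0 at 3, where 50.0% of tested regions were below 0. Their median was -0.04, and they ran from -0.21 to 0.08. Among the 273 regions of 5 kb or more, which include Nfe2l2 and Txnrd1, 61.2% were below 0 (median -0.02). All 10 member regions passed the filter on low values, a mean of 1 RPKM. Tiparp was the member nearest to it with 1.08 RPKM, and the highest region outside it had just under 1.

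**Figure D3:**
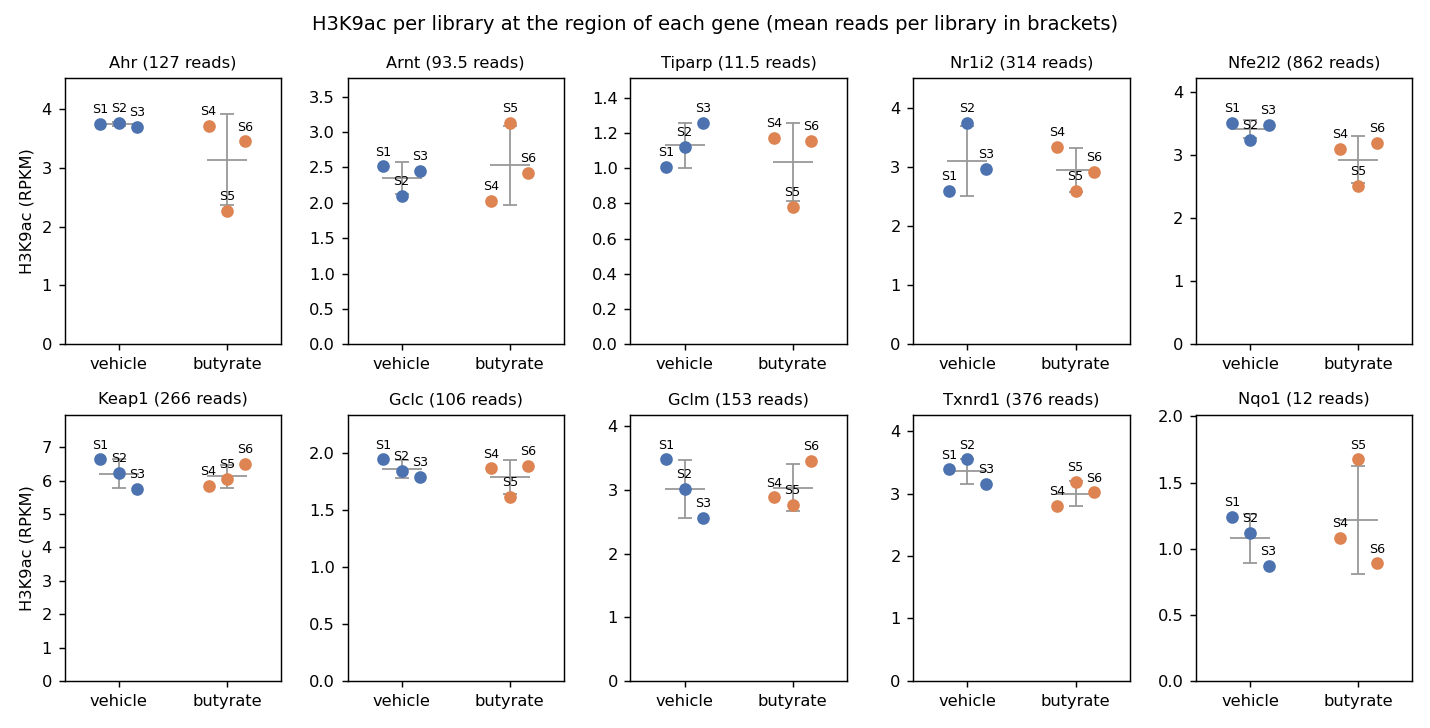
H3K9ac in RPKM in each library (S1 to S3 vehicle in blue, S4 to S6 butyrate in orange) with the mean and SD of each group in grey, n = 3, on axes that start at 0. The groups are apart only at Nfe2l2, and S5 is the lowest or highest library at 7 of the 10 genes.

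Ahr, the receptor itself, had 3.75, 3.77 and 3.70 RPKM in vehicle and 3.71, 2.26 and 3.45 in butyrate. The vehicle libraries were nearly equal, the butyrate libraries were spread by the low S5, and the groups overlapped. The means were 3.74 ± 0.035 and 3.14 ± 0.77 RPKM (SD, n = 3 each). The log2 fold change of -0.21 ± 0.13 (SE; 95% interval -0.50 to 0.07) did not pass limma (adjusted p 0.737). Without S5 it was -0.05 ± 0.11, and the authors' deposited table gave -0.24 with an FDR of 0.669.

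Arnt, the partner of Ahr, had 2.52, 2.10 and 2.45 RPKM in vehicle and 2.03, 3.13 and 2.42 in butyrate. Here S5 was the highest library and S4 the lowest, so that butyrate spanned the whole vehicle range. The log2 fold change was 0.06 ± 0.14 (SE; 95% interval -0.23 to 0.36), and -0.06 without S5.

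Tiparp, the target that feeds back on Ahr, had 1.01, 1.12 and 1.26 RPKM in vehicle and 1.17, 0.782 and 1.15 in butyrate at its distal region, on 11.5 mean reads. The groups overlapped, with a log2 fold change of -0.07 ± 0.18 (SE; 95% interval -0.47 to 0.33), and 0.02 without S5. The voom interval of Tiparp was wider, from -0.98 to 0.78. At the region over the Tiparp start, named 4931440P22Rik in the table, the values were 6.81, 5.26 and 6.89 RPKM in vehicle and 5.98, 5.86 and 6.28 in butyrate. The start of Tiparp was thus far more strongly acetylated per kilobase than the distal region named for it, and all butyrate libraries lay within the vehicle range. The log2 fold change there was -0.05 ± 0.09 (SE; 95% interval -0.25 to 0.16).

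Nr1i2, the pregnane X receptor that senses bile acids and drugs, had 2.60, 3.76 and 2.97 RPKM in vehicle and 3.35, 2.60 and 2.92 in butyrate. All butyrate libraries but S5 lay within the vehicle range, and S5 lay at its lower edge. The log2 fold change was -0.05 ± 0.13 (SE; 95% interval -0.32 to 0.23), 0.02 without S5 and 0.06 without S2. The chi-square of the reads within groups, divided by its degrees of freedom, was 8.17 (about 1 for counting error alone, and growing with depth for a given spread).

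Nfe2l2, which encodes Nrf2, had 3.52, 3.25 and 3.48 RPKM in vehicle and 3.09, 2.51 and 3.19 in butyrate. The lowest vehicle library (S2) lay just above the highest butyrate library (S6), and this was the only one of the 10 genes at which the groups did not overlap, where 13.0% of tested regions did not (6.85% lower and 6.11% higher with butyrate). Among the 273 regions of 5 kb or more, of which Nfe2l2 is one, the groups did not overlap at 42. The means were 3.41 ± 0.15 and 2.93 ± 0.37 RPKM (SD, n = 3 each), a ratio of 0.859. By limma the log2 fold change was -0.17 ± 0.11 (SE; 95% interval -0.41 to 0.07; adjusted p 0.738). By voom on the reads it was -0.22 ± 0.07 with an unadjusted voom p of 0.0014 and an adjusted p of 0.186, and the authors' deposited table gave -0.22 with a p of 0.0233 and an FDR of 0.438. The difference shrank to -0.09 ± 0.11 without S5, and over all ways of leaving out 1 library it ran from -0.22 to -0.09. The chi-square ratio within groups was 6.38.

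Keap1, the inhibitor of Nrf2, had 6.63, 6.23 and 5.76 RPKM in vehicle and 5.83, 6.04 and 6.51 in butyrate. Every butyrate library lay within the vehicle range. Its log2 fold change of -0.02 ± 0.08 (SE) had the narrowest interval of the 10 genes, -0.19 to 0.16, which on the scale of RPKM + 1 spans ratios of 0.877 to 1.12.

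The targets of Nrf2 in glutathione synthesis are Gclc and Gclm, the catalytic and modifier subunits of glutamate-cysteine ligase. Gclc had 1.94, 1.84 and 1.79 RPKM in vehicle and 1.86, 1.61 and 1.88 in butyrate, and Gclm had 3.48, 3.02 and 2.56 in vehicle and 2.88, 2.77 and 3.46 in butyrate. The groups overlapped at both genes, and the butyrate libraries of Gclm all lay within the vehicle range. The log2 fold changes were -0.04 ± 0.14 for Gclc (SE; 95% interval -0.33 to 0.26) and 0.01 ± 0.12 for Gclm (SE; 95% interval -0.25 to 0.27). The spread of Gclc within groups was no larger than counting error (chi-square ratio 0.436), whereas that of Gclm was (3.01).

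Txnrd1, the cytosolic thioredoxin reductase, had 3.39, 3.55 and 3.15 RPKM in vehicle and 2.80, 3.19 and 3.02 in butyrate. The groups overlapped only in that S5 (3.19) exceeded S3 (3.15). The means were 3.36 ± 0.20 and 3.00 ± 0.20 RPKM (SD, n = 3 each), and the log2 fold change was -0.12 ± 0.10 (SE; 95% interval -0.35 to 0.10; limma adjusted p 0.796). By voom it was -0.17 ± 0.09 (unadjusted voom p 0.077), and without S5 it was -0.16 ± 0.12. Of the 10 genes only Ahr, Nfe2l2 and Txnrd1 kept a log2 fold change below 0 whichever library was left out, with -0.31 to -0.05, -0.22 to -0.09 and -0.16 to -0.09. None of these passed limma after adjustment (the smallest unadjusted p was 0.0424, for Ahr without S4). These fits share most of their libraries, and the share of all tested regions that kept their sign in this way is not given here.

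Nqo1, the NAD(P)H quinone reductase under both Ahr and Nrf2, had 1.24, 1.12 and 0.871 RPKM in vehicle and 1.08, 1.68 and 0.888 in butyrate, on 12.0 mean reads. S5 was the highest library, and the groups overlapped. The log2 fold change was 0.08 ± 0.19 (SE; 95% interval -0.34 to 0.50), and -0.06 ± 0.21 without S5. By voom, which adds no pseudocount of 1 RPKM, the log2 fold change of Nqo1 was 0.09 with a 95% interval of -0.78 to 0.96. At this depth differences within that range thus remained possible.

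**Figure D4:**
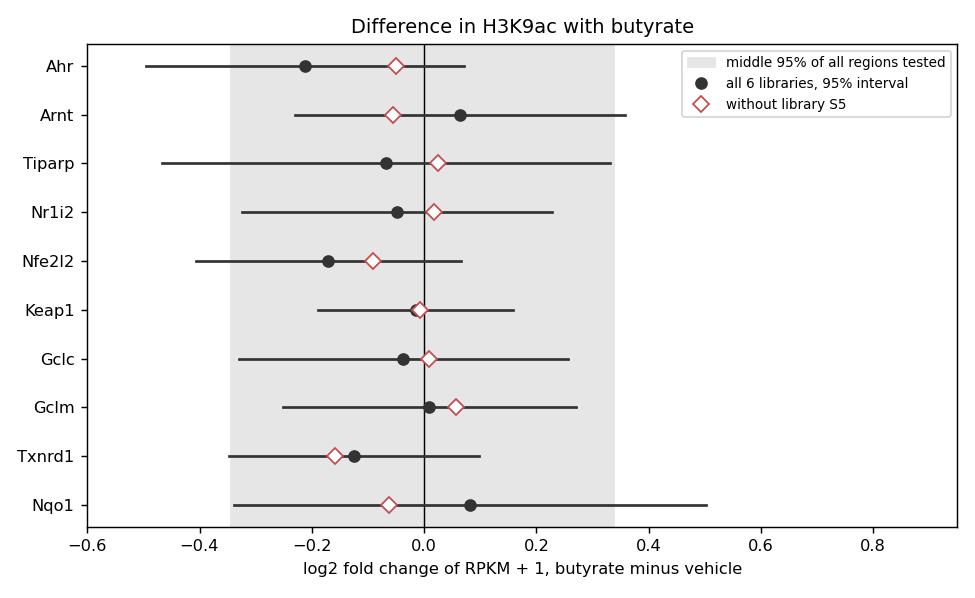
Log2 fold change of RPKM + 1, butyrate minus vehicle, with 95% intervals (black) and the value without library S5 (red diamonds); grey marks the middle 95% of all regions tested. All 10 intervals include 0, and without S5 the values for Arnt, Tiparp, Nqo1, Gclc and Nr1i2 change sign while those for Ahr and Nfe2l2 move toward 0.

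Library S5 was the lowest library at 5 of the 10 genes (Ahr, Tiparp, Nr1i2, Nfe2l2 and Gclc) and the highest at 2 (Arnt and Nqo1). Over all tested regions it was the lowest or highest in 37.5%, and the other libraries in 29.8% to 36.8%. It was among the shallower libraries, with 1255251 reads in regions. Whether it differs in quality from the others was not tested. An exact two-sided permutation test over the 6 libraries, whose smallest possible p is 0.1, gave 0.1 for Nfe2l2, 0.2 for Ahr and Txnrd1, and 0.6 to 1 for the other 7 genes.

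The wider pathways were followed at 1 region per gene, within 5 kb of a start site, in 5 lists with 128 distinct genes, of which 83 were measured. By limma 0 of the 83 passed and 6 had an unadjusted p under 0.05, close to the 7.27% of all tested regions that did. Log2 fold changes were below 0 at 56 and above 0 at 27 (median -0.05), whereas 49.7% of all 9195 genes taken in this way were below 0 (median 0.00). Without the 9 of the 10 genes that this measured, 50 of 74 were below 0. The count of 56 was 51 without S5, and ran from 46 of 83 without S4 to 58 without S6. Groups did not overlap at 19 of the 83, against 12.9% of all genes so taken. Of these, Selenbp1, Ncoa2, Ncoa3, Cul1, Cul3 and Cyp3a13 were higher with butyrate and the others lower. The genes named from each list below were picked by their small p, which favours genes with groups apart.

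In the Ahr list 14 of 27 genes were measured, with 8 values below 0 and 6 above (median -0.03), and 0 passed limma. With 1 library left out its median ran from -0.05 without S5 to 0.02 without S1. The summed RPKM of its measured genes overlapped between the groups, with 52.3 to 54.2 in vehicle and 51.5 to 53.4 in butyrate. The list's largest difference was at Selenbp1, a selenium-binding protein, with 0.908, 1.46 and 1.13 RPKM in vehicle and 2.17, 2.54 and 1.74 in butyrate. All its butyrate libraries were above all vehicle libraries, on 26.3 mean reads (log2 fold change 0.54 ± 0.17, limma adjusted p 0.572). By voom its log2 fold change was 0.90 (voom adjusted p 0.276). Hes1, a Notch-driven repressor, had -0.15 ± 0.09 (SE) at a region centred 4943 bp after its start, near the limit of 5 kb. Ncoa1, a coactivator of nuclear receptors, had -0.13 ± 0.08 (SE).

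The Keap1-Nrf2 control list, with ubiquitin ligase subunits and Maf and Bach factors, had 17 of 20 genes measured, 11 lower and 6 higher (median -0.03), and 0 passed. It was 8 lower and 9 higher without S5 and without S4, and the median ran from -0.05 without S6 to 0.01 without S4. The list's summed RPKM overlapped between the groups, with 72.2 to 75.0 in vehicle and 70.5 to 75.8 in butyrate. Btrc, a ubiquitin ligase adaptor for Nrf2, had -0.19 ± 0.10, Mafk, a small Maf partner, -0.14 ± 0.08, and Park7, a redox-sensitive chaperone, 0.20 ± 0.13 (log2 fold change ± SE).

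The list of glutathione targets held 27 genes, and the 17 measured ones had 12 values below 0 and 5 above (median -0.10), with 0 past the test. With 1 library left out the median ran from -0.12 without S6 to -0.05 without S1, and was -0.06 without S2. The counts ran from 14 below and 3 above without S6 to 10 below and 7 above without S4 and without S5. Gpx4, the glutathione peroxidase that protects membrane lipids, had 6.60, 8.07 and 6.82 RPKM in vehicle and 6.17, 4.73 and 5.49 in butyrate, with the groups apart. Its log2 fold change was -0.34 ± 0.10 (unadjusted limma p 0.0044, adjusted p 0.572). The export pumps Abcc1 and Abcc2, for glutathione conjugates, had -0.38 ± 0.17 and -0.21 ± 0.10 (SE). At Abcc2 all butyrate libraries (3.01 to 3.35 RPKM) lay below all vehicle libraries (3.67 to 3.92), and at Abcc1 the groups overlapped by S6 and S2. The RPKM of the list's measured genes summed to 46.3 to 47.5 in vehicle libraries and to 39.1 to 44.1 in butyrate libraries. Gpx4, with means of 7.16 in vehicle and 5.46 in butyrate, is part of these sums. How often such sums part for other sets of genes was not tested.

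The thioredoxin, NADPH, quinone and iron targets held 29 genes, 19 of them measured, with 12 values below 0, 7 above (median -0.03) and 0 past the test. The median ran from -0.07 without S2 to -0.0068 without S4, and the counts were 14 below and 5 above without S2 and without S5. Pgd, an NADPH-producing enzyme of the pentose phosphate pathway, had 4.59, 4.78 and 4.38 RPKM in vehicle and 3.41, 2.62 and 4.21 in butyrate. The groups were apart, with a log2 fold change of -0.35 ± 0.12 (limma adjusted p 0.577). Ftl1, the ferritin light chain, had -0.28 ± 0.11 and Akr1b3, an aldose reductase, -0.29 ± 0.14 (SE), also with groups apart. By voom Akr1b3 had -0.44. The summed RPKM of this list was 59.2 to 60.9 in vehicle and 55.3 to 57.1 in butyrate. Part of these sums are Pgd (means of 4.58 in vehicle and 3.41 in butyrate), Ftl1 (3.88 and 3.04) and Fth1 (3.35 and 2.75), whereas 7 of the 19 genes had values above 0. As for the glutathione targets, how often such sums part for other sets of genes was not tested.

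The list of Pxr, Car and drug disposition genes had 20 of 29 measured, 16 lower and 4 higher (median -0.08), and 0 passed. Without S2 it was 12 lower and 9 higher, and the median ran from -0.12 without S6 to -0.03 without S2. Its smallest p beside those of Abcc2 and Ncoa1 was at Cyp3a11, the main drug-oxidising cytochrome P450 under Nr1i2, with 1.55, 1.81 and 1.59 RPKM in vehicle and 1.17, 0.936 and 1.63 in butyrate. The groups overlapped through S6, and the log2 fold change was -0.25 ± 0.17 (SE; unadjusted limma p 0.163). By voom it was -0.40 for Cyp3a11 (unadjusted voom p 0.0169, adjusted p 0.39). The summed RPKM of this list overlapped between the groups, with 57.2 to 66.1 in vehicle and 56.3 to 60.9 in butyrate.

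**Figure D5:**
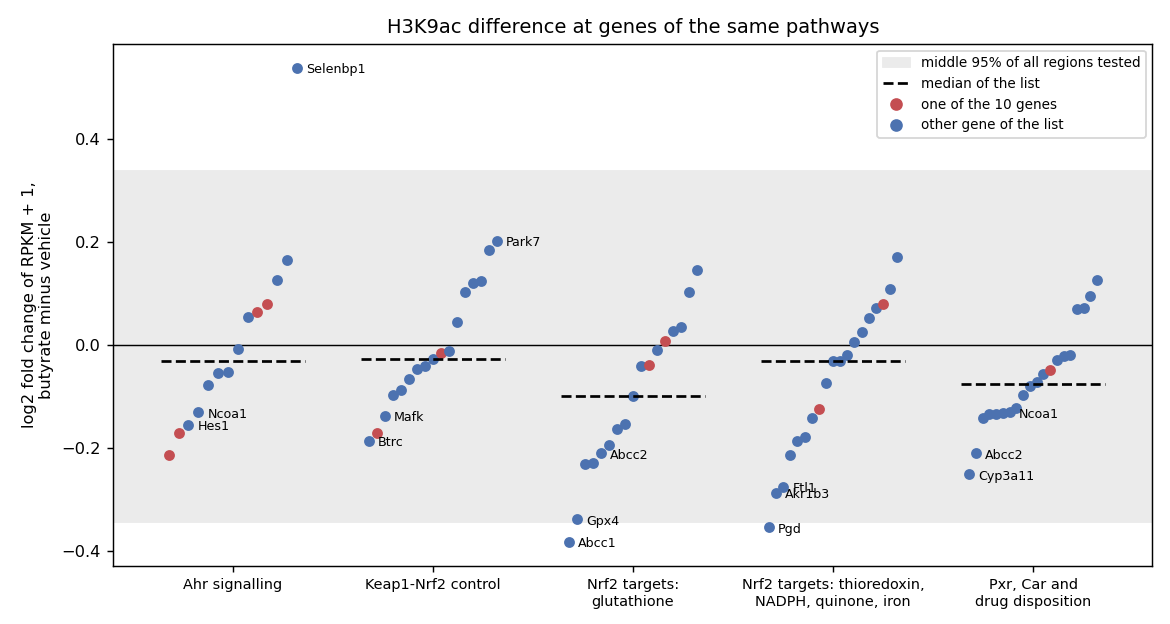
Log2 fold change of RPKM + 1, butyrate minus vehicle, of every measured gene in 5 pathway lists (red: one of the 10 genes; blue: other genes; dashed line: median of the list; grey: middle 95% of all regions tested). The medians run from -0.10 for the glutathione targets to -0.03, and Selenbp1 stands highest at 0.54.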

How the data were processed

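H3K9ac was measured in 6 libraries, 3 per group. Per the submitters' processing notes the build is mm10 and the tools include STAR, Picard, HOMER and edgeR; how regions were called and counted is not given in the sources used here. Per the file headers, the deposited table holds RPKM for each library. It also holds group means in RPKM and CPM that the authors computed. Their own comparison is deposited as log2 fold changes, log2 CPM, p-value and FDR. Column names give the group of a library and not its replicate number.

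Reads were recovered from RPKM and region length, and 100% of them came out whole within 0.01. The test was limma 3.58.1 (R 4.3.3) on log2(RPKM + 1), which understates changes of weak regions, with trend and robust empirical Bayes, over all regions with a mean of at least 1 RPKM (10529; 722 left out), with Benjamini-Hochberg adjustment. Voom on the recovered reads used the effective library sizes. The script was tested on simulated data. Coordinates are 1-based. Composition and start sites came from GRCm38.p6 and GENCODE M21.

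The members and lists were chosen with earlier results of these data known. Every member is named, and from each list the 3 other genes with the smallest p. Alternatives covered pseudocount, filter, scaling, voom, threshold and leaving out each library. The promoter of Gclm was added to those shown by rule after its values were seen.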

Additional observations from a re-analysis of the deposited data

How the results depend on the processing

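The count of regions called over the whole table was 0 by limma under the other pseudocount (0.25), no filter, both rescalings, an adjusted p of 0.1 and each library left out, and 16 by voom on all regions and 9 by voom on at least 25 reads. None of these called a region of the 10 genes or of the pathway lists. Genes whose groups did not overlap numbered 1, and 1 to 3 with a library left out: 3 without S3, 2 without S4 and 2 without S5. Groups with fewer libraries separate more easily by chance. The share of 13.0% of all tested regions holds for all 6 libraries, and the share with a library left out is not given here. Of 118 recomputed log2 fold changes of the 10 genes, 108 kept their sign and 10 changed it, all with a library left out, and all within 0.08 of 0 after the change. With each library left out in turn, values ran from -0.056 to 0.17 for Arnt, -0.12 to 0.025 for Tiparp, -0.061 to 0.027 for Keap1, -0.063 to 0.19 for Nqo1, -0.063 to 0.0083 for Gclc, -0.075 to 0.091 for Gclm, -0.14 to 0.062 for Nr1i2 and -0.16 to 0.0098 for the Tiparp start region (4931440P22Rik). No paired analysis was possible because the columns carry no replicate number that ties a library to a numbered sample. Depth limits Nqo1 and Tiparp most, with about 12 reads per library.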
